A study of Homo sapiens with 6 samples.

Results

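The 10 genes described here carry iron into cells, store it, release it from storage, export it or control these steps: TFRC, SLC11A2, CYBRD1, FTH1, FTL, NCOA4, SLC40A1, HEPH, ACO1 and IREB2. They were chosen by name, and all 10 were found among the 60676 genes listed in the RNA-seq tables. HT29 cells, an established line from a human colorectal adenocarcinoma, had grown for 48 h in control medium (untreated), or in medium that lacked histidine or tryptophan. All cells were wild-type HT29, and each condition had 2 libraries, 6 in all. Both depleted media contained dialyzed serum, but RPMI was the base of the one that lacked histidine, and DMEM F-12 that of the other. For RNA-seq, the base of the control medium is not given in the sources used here, although complete RPMI served as the control in the proteomics of the study, so an effect of the base medium and of the missing amino acid cannot be told apart. Nothing in those sources says that the 2 libraries of a condition came from separate cultures, and p-values then measure only the spread between these libraries.

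As background, most cells take up iron as transferrin bound to the receptor encoded by TFRC, while intestinal cells also reduce and import dietary iron through CYBRD1 and SLC11A2. Iron that is not used is stored in shells of the ferritin chains FTH1 and FTL, and leaves the cell through ferroportin, the product of SLC40A1, with the help of the ferroxidase HEPH. The iron regulatory proteins encoded by ACO1 and IREB2 bind hairpins called iron responsive elements when iron is scarce. Binding in the 5′ UTR blocks translation of the ferritin and ferroportin mRNAs, and binding in the 3′ UTR protects the TFRC mRNA from decay. Since RNA-seq measures mRNA only, ferritin or ferroportin translation was not measured here.

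Hairpins that match a fixed pattern were found in TFRC, FTH1, FTL and SLC40A1 and are shown here. They were searched on the transcript strand as a C, 5 bases, the loop CAGTGN and 5 bases that pair with the first 5, G-T pairs allowed. Of the 10 genes, 4 held such a match and together had 7 of them, while 428 of 19892 protein-coding genes (2.15%) held at least 1 anywhere in a transcript. The genes were chosen by name for iron handling and include known targets of the iron regulatory proteins. Their share thus follows from the choice and is no test. Capitals mark the bulged C and the 6 bases of the loop, and each line runs 5′ to 3′ on the minus strand of GRCh38 except that of FTL, which is on the plus strand. The TFRC elements all lie in its 3′ UTR, at chr3:196050978-196051007, chr3:196050574-196050603, chr3:196050509-196050538 and chr3:196050462-196050491, in the order of the lines. Those of FTH1 (chr11:61967573-61967602), FTL (chr19:48965335-48965364) and SLC40A1 (chr2:189580660-189580689) lie in 5′ UTRs.
TFRC: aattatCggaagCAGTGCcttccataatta
TFRC: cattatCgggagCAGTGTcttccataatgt
TFRC: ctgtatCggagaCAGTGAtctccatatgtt
TFRC: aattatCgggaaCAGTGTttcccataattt
FTH1: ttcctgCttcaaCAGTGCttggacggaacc
FTL: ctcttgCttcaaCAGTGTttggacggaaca
SLC40A1: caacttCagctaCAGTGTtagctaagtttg
No match in the other 6 genes says only that this pattern was not found in their annotated transcripts. Iron responsive elements of another form were not searched, so these genes may still carry one.

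The libraries held 46390819 to 64388876 reads counted on the listed genes. Normalized counts below are reads divided by size factors computed over all 6 libraries, so the 3 conditions share a scale. Tests of a depletion against untreated cells used limma on log2(normalized count + 1) of its own table, with Benjamini-Hochberg adjustment over all genes tested and a threshold of 0.05. In limma the spread of a gene is estimated partly from that of other genes. A small p-value thus does not rest on the libraries of that gene alone. Both depletions were tested against the same untreated libraries, so their results are not independent. All 9 epithelial markers examined had reads, and their summed level was 375174 to 399282 in untreated, 508207 to 534502 in histidine-depleted and 547213 to 549441 in tryptophan-depleted cells. Singly, 4 were higher and 5 lower without histidine (median -0.13), beside 77.3% of all genes called, and 5 higher and 2 lower without tryptophan (median 0.36), beside 70.8%. The 5 mast cell markers had at most 1 read each in any library. Markers of fibroblasts, endothelium and the erythroid lineage summed to at most 76.5, 55.7 and 15.4 normalized counts in any library, with VWF higher (from 7.65 and 3.98 to 42.5 and 40.7, adjusted p = 6.03e-07) and PECAM1 lower (log2 fold change -2.15, adjusted p = 2.95e-06, limma) among the endothelial ones without histidine. Those of leukocytes and macrophages, 6 genes, summed to 104 and 123 in untreated cells, 62.3 and 75.3 without histidine, and 382 and 370 without tryptophan. Most of this was CD14, which fell without histidine (-0.96, adjusted p = 6.20e-05, limma) and rose without tryptophan (1.73, adjusted p = 6.90e-28). CD163, of the same list, had 9 and 11 reads without histidine and 0 in the other libraries. PTPRC, the gene of the leukocyte antigen CD45, had at most 2 reads in any library. The summed level of 15 proliferation genes was 134104 and 139103 in untreated cells, 82139 and 83106 without histidine, and 23937 and 24848 without tryptophan. Of these genes 2 were higher and 9 lower without histidine (39.1% and 38.2% of all genes tested), and all 15 were lower without tryptophan (34.8% of all genes). The part of proliferation in the values below was not tested. In bulk RNA, fewer cells with a transcript and less of it per cell cannot be told apart.

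Per exonic length, FTL was by far the most abundant of the 10 mRNAs in untreated cells. Its level was 11814 ± 141 TPM (reads per base of exon, scaled to an equal total in every library; SD, n = 2), higher than that of 99.97% of protein-coding genes. FTH1 followed at 371 ± 19.7, then NCOA4 at 171 ± 10.5 and TFRC at 116 ± 1.14. The FTH1 level leaves out reads counted on the pseudogenes named after it, which came to 102.9% and 97.7% of its own in untreated cells. It is also divided by the full exon length, of which 63.22% is shared with BEST1. The part of either in the level of FTH1, and so in its distance from FTL, was not tested. SLC40A1 (69.2 ± 2.51) and IREB2 (67.7 ± 2.03) overlapped and cannot be ordered. ACO1 stood at 28.5 ± 1.05 and SLC11A2 at 26.8 ± 0.0532, while HEPH (9.66 ± 0.267) and CYBRD1 (7.27 ± 0.242) were the lowest. With the longest transcript as the length, TFRC (213) stood above NCOA4 (142), IREB2 (84.0) above SLC40A1 (63.6), and SLC11A2 (46.6) above ACO1 (21.0). The 10 mRNAs took 0.407% and 0.403% of all counted reads in untreated cells, 0.477% and 0.491% without histidine, and 0.999% and 1.00% without tryptophan. FTL alone held 0.837% and 0.838% of the reads after tryptophan depletion, against 0.273% and 0.269% in untreated cells.

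**Figure D1:**
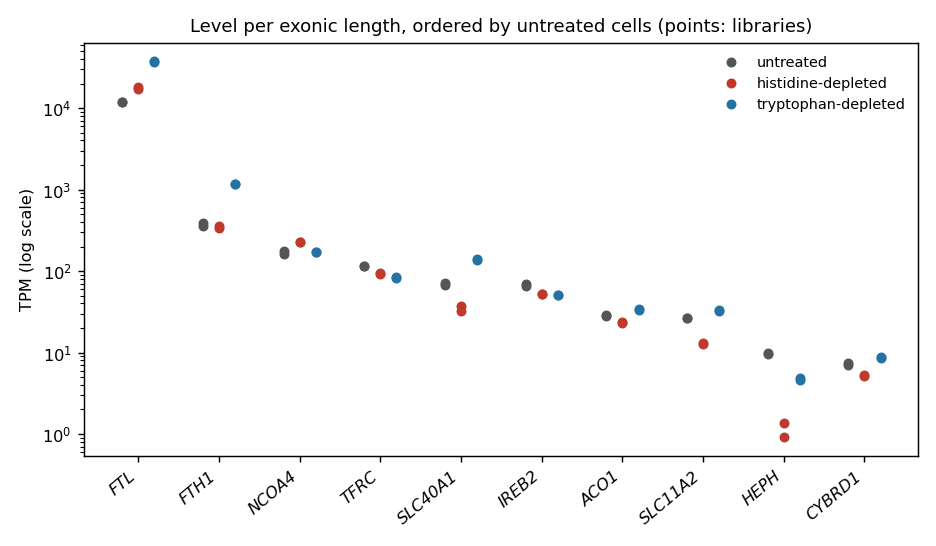
Level of each iron gene per length of exon, in TPM on a log scale, for each of the 6 libraries and ordered by untreated cells. FTL lies between 11714 and 37302 TPM over the libraries, while HEPH drops to about 1 after histidine depletion. The level of FTH1 leaves out reads counted on its pseudogenes.

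After histidine depletion, FTL and NCOA4 rose while TFRC, SLC11A2, CYBRD1, SLC40A1, HEPH, ACO1 and IREB2 fell, and FTH1 did not pass the test. These 9 calls among 10 stand beside 77.3% of all 18288 genes tested, of which 39.1% were higher and 38.2% lower. The median log2 fold change of the 10 genes was -0.24, against 0.01 for all genes tested. After tryptophan depletion, FTH1, FTL, SLC40A1, SLC11A2, ACO1 and CYBRD1 rose, TFRC, IREB2 and HEPH fell, and NCOA4 did not pass. Again 9 of 10 were called, beside 70.8% of 17960 genes tested (36.1% higher, 34.8% lower), and their median was 0.29 against 0.01. The number of calls is thus near that of genes at large, and the values of each gene carry the description that follows. The groups of libraries did not overlap for 9 of the 10 genes in either comparison, as for 88.1% of genes after histidine and 84.1% after tryptophan depletion.

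**Figure D2:**
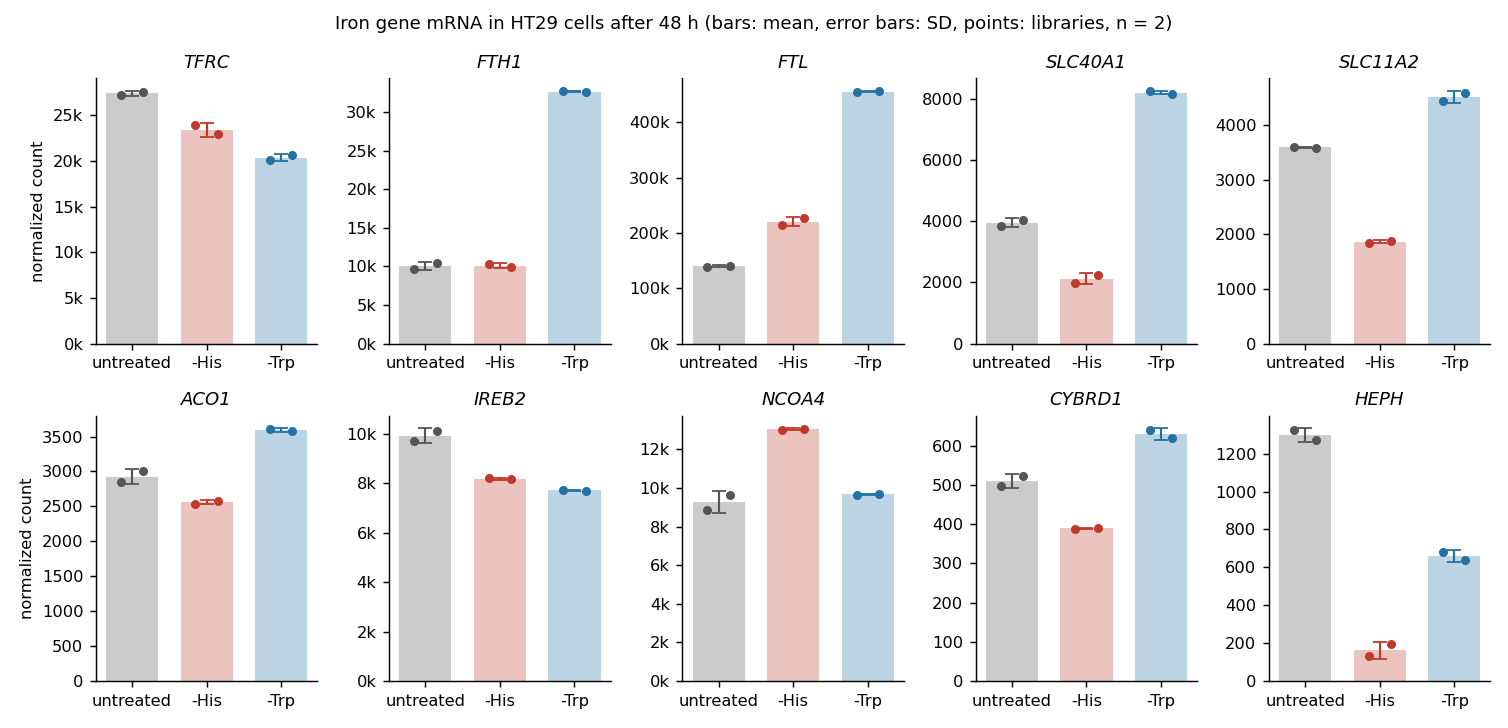
Normalized counts of the 10 iron genes in untreated, histidine-depleted (-His) and tryptophan-depleted (-Trp) HT29 cells, each panel with its own axis from 0; bars show means, error bars the SD and points the 2 libraries. SLC40A1, SLC11A2, ACO1 and CYBRD1 were lower than untreated without histidine and higher without tryptophan.

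Among the uptake genes, TFRC (ENSG00000072274, chromosome 3, 196012511 to 196082153) fell after both depletions. Its normalized counts were 27203 and 27568 in untreated cells, 23956 and 22888 without histidine, and 20057 and 20621 without tryptophan. The 3 groups did not overlap, and the tryptophan-depleted libraries were the lowest. The log2 fold change was -0.22 without histidine (standard error 0.0534, adjusted p = 0.000777, limma) and -0.44 without tryptophan (0.0499, adjusted p = 2.69e-14). Without the second histidine-depleted library the former was -0.18 and was no longer called (adjusted p = 0.155, limma). With quantile normalization it was -0.48.

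SLC11A2 (ENSG00000110911, chromosome 12, 50979401 to 51028566) encodes DMT1, the importer of ferrous iron at the intestinal surface and in endosomes. It measured 3605 and 3593 normalized counts in untreated cells, 1843 and 1885 without histidine, and 4441 and 4596 without tryptophan. The histidine-depleted libraries lay below and the tryptophan-depleted ones above the untreated range. The mRNA was 1.92-fold lower after histidine depletion (log2 fold change -0.94, standard error 0.0528, adjusted p = 4.13e-14, limma). Tryptophan depletion raised it 1.25-fold (0.32, standard error 0.0480, adjusted p = 1.56e-09).

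CYBRD1 (ENSG00000071967, chromosome 2, 171522247 to 171558129) encodes duodenal cytochrome b, a membrane ferric reductase, and was the least abundant of the 10 per length in untreated cells. Its normalized counts were 498 and 522 in untreated, 388 and 391 in histidine-depleted, and 640.3 and 619.9 in tryptophan-depleted cells. It followed the same order of conditions as SLC11A2, with no overlap between groups. The log2 fold changes were -0.38 (standard error 0.0865, adjusted p = 0.000346, limma) and 0.30 (0.0783, adjusted p = 0.000423). The decrease was -0.15 under quantile normalization and then missed the threshold (adjusted p = 0.0850, limma).

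The storage genes showed the largest increases among the 10. FTL (ENSG00000087086, chromosome 19, 48965309 to 48966879), the light chain of ferritin, measured 138511 and 140780.1 normalized counts in untreated cells. The values were 214858 and 226394 without histidine, and 454739.6 and 456474 without tryptophan. All depleted libraries exceeded the untreated ones, and those without tryptophan were the highest. FTL was 1.59-fold higher after histidine depletion (log2 fold change 0.67, standard error 0.0759, adjusted p = 2.11e-08, limma). The increase was 3.25-fold after tryptophan depletion (1.70, standard error 0.0834, adjusted p = 4.13e-42), and 3.65% of all genes tested had a larger log2 fold change. Quantile normalization lowered the value without histidine to 0.43.

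FTH1 (ENSG00000167996, chromosome 11, 61959718 to 61967634) encodes the heavy chain of ferritin, which oxidizes the iron as it enters the shell. It measured 9724.5 and 10474 normalized counts in untreated cells, 10324 and 9891 without histidine, and 32726 and 32614 without tryptophan. Untreated and histidine-depleted libraries overlapped, while both tryptophan-depleted libraries lay far above. The difference without histidine was 0.01 (standard error 0.0524, adjusted p = 0.858, limma), and it took the opposite sign in 4 of 15 alternative settings, down to -0.25 with quantile normalization, which called it lower (adjusted p = 0.000165, limma). The 3.22-fold increase without tryptophan (1.69, standard error 0.0488, adjusted p = 7.58e-68) was close to that of FTL.

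Reads of FTH1 are less certain than those of the other genes. The annotation names 25 pseudogenes after it, and their summed reads came to 102.9% and 97.7% of those of FTH1 in untreated cells. The share was 80.7% and 87.0% without histidine, and 104.9% and 105.8% without tryptophan. Hence the histidine-depleted libraries had the lowest share. With these reads added to FTH1, the difference without histidine was -0.11 (adjusted p = 0.0516, limma) and the increase without tryptophan 1.72 (adjusted p = 2.1e-66). The 16 pseudogenes named after FTL held only 1.6% to 1.7% of the reads of FTL.

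Genes on the opposite strand, here BEST1, cover 63.22% of the exonic bases of FTH1, and whether strand was used in counting is not given in the sources used here. Of 198 protein-coding genes covered for 50% to under 95%, the class that holds FTH1, 40.4% had at most 60 reads over all libraries, against 40.2% of 12838 genes with no such overlap. Their median was 143.5 reads against 540.0. Of 6835 genes covered for over 0 to under 50%, 21.2% had so few reads, and the median was 4702. Of the 21 genes covered for at least 95%, a class without FTH1, 90.5% had so few reads. BEST1 itself had 114 and 135 reads in untreated cells, 16 and 26 without histidine, and 508 and 568 without tryptophan. It was thus lower without histidine (-2.65, adjusted p = 7.39e-10, limma) and, like FTH1, higher without tryptophan (2.02, adjusted p = 2.27e-38), and the part of the overlap in the level of FTH1 was not tested.

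**Figure D3:**
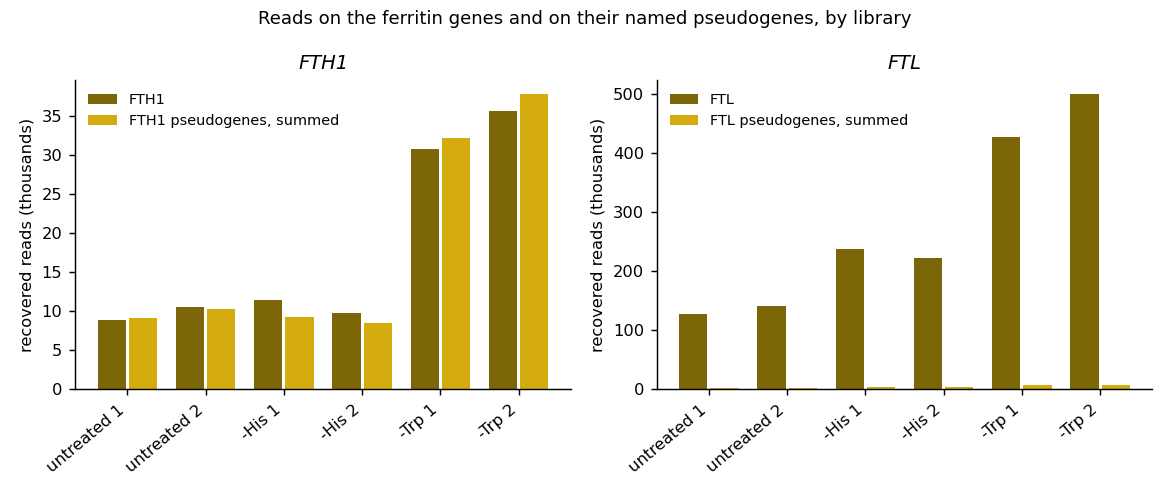
Recovered reads, not scaled for depth, on FTH1 and FTL and on the summed pseudogenes named after each, in the 6 libraries. The pseudogenes of FTH1 hold 80.7% to 105.8% as many reads as FTH1, those of FTL 1.6% to 1.7% as many as FTL.

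NCOA4 (ENSG00000266412, chromosome 10, 46005088 to 46030623) encodes the receptor that carries ferritin to lysosomes, where its iron is released. Its normalized counts were 8852 and 9649.8 in untreated cells, 13017 and 13072 without histidine, and 9633 and 9692 without tryptophan. Only the histidine-depleted libraries stood apart, since the tryptophan-depleted ones overlapped the untreated range. NCOA4 rose 1.42-fold without histidine (0.51, standard error 0.0524, adjusted p = 4.34e-09, limma), or by 0.24 on the log2 scale under quantile normalization. Without tryptophan the difference was 0.06 (standard error 0.0471, adjusted p = 0.280, limma). The untreated libraries decide that call: without the first of them the value was -0.01 (adjusted p = 0.891), and without the second 0.12 (adjusted p = 0.00100, limma). FTL and NCOA4 were thus the genes that rose without histidine, and FTL and FTH1 those that rose most without tryptophan.

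Of the export genes, SLC40A1 (ENSG00000138449, chromosome 2, 189560590 to 189583758) moved in opposite directions after the depletions. It measured 3859 and 4060.1 normalized counts in untreated cells, 1990.4 and 2246 without histidine, and 8254 and 8184 without tryptophan. No libraries of different groups overlapped. Ferroportin mRNA was 1.86-fold lower after histidine depletion (log2 fold change -0.90, standard error 0.0585, adjusted p = 7.72e-13, limma). It was 2.06-fold higher after tryptophan depletion (1.05, standard error 0.0469, adjusted p = 3.31e-46).

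HEPH (ENSG00000089472, chromosome X, 66162671 to 66268867) encodes hephaestin, a copper-dependent ferroxidase that works beside ferroportin at the basal side of enterocytes. Its normalized counts were 1322.5 and 1271 in untreated cells, 131 and 193 without histidine, and 682 and 637 without tryptophan. The histidine-depleted libraries were the lowest and also differed most between each other. HEPH fell 8.05-fold after histidine depletion (-3.01, standard error 0.118, adjusted p = 3.56e-17, limma), and 0.930% of all genes tested had a lower log2 fold change. After tryptophan depletion it fell 1.98-fold (-0.98, standard error 0.0658, adjusted p = 1.31e-29).

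The regulators ACO1 and IREB2 were measured next. ACO1 (ENSG00000122729, chromosome 9, 32384603 to 32454769) encodes iron regulatory protein 1, which serves as cytosolic aconitase when it holds an iron-sulfur cluster. It measured 2849.5 and 2999.8 normalized counts in untreated cells, 2539.7 and 2580.3 without histidine, and 3610.0 and 3576 without tryptophan. Groups did not overlap, with the histidine-depleted libraries lowest. The decrease of -0.18 without histidine (standard error 0.0536, adjusted p = 0.00361, limma) missed the threshold without the mean-variance trend (adjusted p = 0.0619) and without the first histidine-depleted library (adjusted p = 0.0517, limma). Without tryptophan the log2 fold change was 0.29 (0.0492, adjusted p = 7.39e-08).

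IREB2 (ENSG00000136381, chromosome 15, 78437431 to 78501453) encodes iron regulatory protein 2, which is degraded when iron is plentiful. Its normalized counts were 9724.5 and 10140.2 in untreated cells, 8218 and 8160.2 without histidine, and 7723 and 7709 without tryptophan. Both depletions lay below the untreated range. The log2 fold changes were -0.27 (standard error 0.0496, adjusted p = 3.07e-05, limma) and -0.37 (0.0465, adjusted p = 1.80e-12). Under quantile normalization the former was -0.51.

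**Figure D4:**
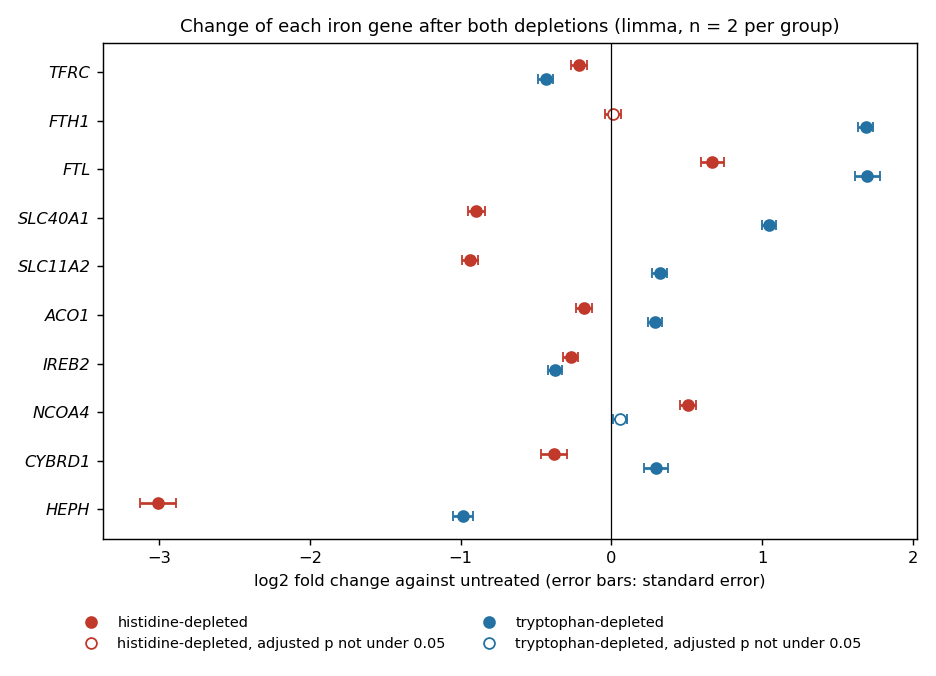
Log2 fold change of each iron gene against untreated cells after histidine and after tryptophan depletion, with standard errors; open circles mark an adjusted p not under 0.05. HEPH after histidine depletion (-3.01) and the ferritin genes after tryptophan depletion (1.69 and 1.70) lie farthest from 0.

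Histidine- and tryptophan-depleted cells were also compared directly, with all 6 libraries on a shared scale. Their media differed in base (RPMI against DMEM F-12) as well as in the missing amino acid. The differences below therefore cannot be assigned to the amino acid or to the base medium. TFRC and NCOA4 were higher without histidine, 7 genes were lower and IREB2 did not pass, beside 76.7% of 18264 genes called (38.7% higher, 38.0% lower). No libraries of the depletions overlapped for any of the 10 genes, as for 88.6% of genes tested. The median difference of the 10 genes was -0.87, against 0.01 for all genes tested. HEPH differed most (log2 difference -2.04, standard error 0.123, adjusted p = 6.00e-11, limma), or 4.12-fold lower without histidine. SLC40A1 differed by -1.96 (0.0515, adjusted p = 1.01e-15), FTH1 by -1.69 (0.0426, adjusted p = 5.77e-16) and SLC11A2 by -1.28 (0.0425, adjusted p = 1.91e-14). The difference was -1.05 for FTL (0.0540, adjusted p = 7.33e-12), -0.69 for CYBRD1 (0.0741, adjusted p = 1.56e-07) and -0.49 for ACO1 (0.0437, adjusted p = 1.45e-08). Those higher without histidine differed less, NCOA4 by 0.43 (0.0427, adjusted p = 5.36e-08) and TFRC by 0.20 (0.0398, adjusted p = 0.000178, limma). The TFRC difference was 0.05 under quantile normalization and was then not called (adjusted p = 0.185, limma). That of NCOA4 was 0.26 under this setting and was called (adjusted p = 3.7e-06, limma). IREB2 differed by 0.09 (0.0384, adjusted p = 0.0516, limma), with values of -0.06 to 0.09 over 17 alternatives. It was called in 6 of these, among them the fit to only the 4 depleted libraries (adjusted p = 0.0117, limma) and DESeq2 on recovered reads (0.0357).

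Other genes of iron metabolism were taken as 7 lists with 94 genes, of which 81 were tested. After histidine depletion 25 of them were higher and 42 lower (82.7% called, beside 77.3% of all genes tested), with a median log2 fold change of -0.21 against 0.01 for all genes. After tryptophan depletion 23 were higher and 39 lower (76.5%, beside 70.8%), with a median of -0.17 against 0.01. The counts of each list below stand beside 39.1% of all genes higher and 38.2% lower without histidine, and 36.1% and 34.8% without tryptophan. The lists were chosen with results of these data known, and no list was tested as a set.

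In the uptake list, 4 of 11 tested genes were higher and 6 lower without histidine, and 5 higher and 3 lower without tryptophan. STEAP4, a metalloreductase that can reduce ferric iron, had 705 ± 27.4 normalized counts in untreated and 6166 ± 35.5 in histidine-depleted cells (SD, n = 2; log2 fold change 3.14, adjusted p = 1.86e-23, limma). Its level was 933 ± 4.55 without tryptophan (0.40, adjusted p = 1.22e-07). LRP1, an endocytic receptor for heme-hemopexin, fell from 9494 ± 879 to 2393 ± 306 without histidine (-1.98, adjusted p = 3.10e-18, limma). Without tryptophan it rose to 19852 ± 963 (1.06, adjusted p = 7.11e-45). SLC39A14, a transporter of zinc and free iron, rose in both conditions (0.62 and 0.44, adjusted p = 4.14e-11 and 5.12e-16, limma). HFE, which binds the transferrin receptor, rose without histidine (0.46, adjusted p = 6.16e-06) and fell without tryptophan (-0.81, adjusted p = 2.26e-16, limma). Transferrin itself (TF) had at most 7.12 normalized counts in any library. TFR2, a separate receptor gene of liver and erythroid cells, had at most 25.9. It was called lower without histidine (-1.23, adjusted p = 0.0120, limma) but not without tryptophan (-0.06, adjusted p = 0.879, limma).

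Storage and chaperone genes counted 2 higher and 4 lower of 7 tested without histidine, and 2 higher and 1 lower without tryptophan. GLRX3, a glutaredoxin that hands on iron-sulfur clusters, rose from 5794 ± 305 to 10120.1 ± 7.53 without histidine (0.81, adjusted p = 3.80e-13, limma) and was 5290.1 ± 2.21 without tryptophan (-0.14, adjusted p = 0.00670, limma). The latter was not called without either tryptophan-depleted library (adjusted p = 0.146 and 0.109), nor without the mean-variance trend (0.137, limma). PROM2, whose protein promotes release of ferritin in vesicles, fell without histidine from 3605 ± 86.3 to 1043 ± 80.1 (-1.78, adjusted p = 2.03e-18, limma). It measured 4126 ± 46.3 without tryptophan (0.19, adjusted p = 0.000293).

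In the list of export and the hepcidin axis, 1 gene was higher and 8 were lower of 10 tested after histidine depletion, with a median of -0.55, beside 39.1% and 38.2% of all genes and a median of 0.01. After tryptophan depletion 2 were higher and 3 lower. ABCG2, a heme and drug exporter, fell from 3871 ± 130 to 1097 ± 21.7 and 1719 ± 46.3 in these conditions (-1.81 and -1.18, adjusted p = 4.25e-19 and 7.19e-48, limma). HAMP, the gene of hepcidin, and CP, the ferroxidase ceruloplasmin, had at most 10.2 and 11.9 normalized counts in any library.

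Among genes that control the iron regulatory proteins or assemble cytosolic iron-sulfur clusters, 5 of 9 rose and 3 fell without histidine (median 0.43), while 1 rose and 6 fell without tryptophan (median -0.18). FBXL5, the iron-sensing ubiquitin ligase subunit that marks IREB2 protein for degradation, rose after both (0.64 and 0.40, adjusted p = 7.40e-10 and 1.59e-10, limma). RBX1, the RING subunit of the same ligase and of others, went from 1532 ± 73.9 to 3714 ± 28.1 without histidine and to 813 ± 44.6 without tryptophan. Its log2 fold changes were thus 1.29 and -0.92 (adjusted p = 2.40e-16 and 2.73e-29, limma).

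The list of other mRNAs known to carry an iron responsive element had 5 tested genes, of which 3 rose and 1 fell without histidine and 3 rose and 2 fell without tryptophan. EPAS1, which encodes the hypoxia factor HIF-2alpha and has a 5′ UTR element, rose from 3489 ± 179 to 7845 ± 5.26 and 9118 ± 38.4 (1.18 and 1.38, adjusted p = 3.26e-16 and 2.78e-59, limma). PFN2, a profilin with a 3′ UTR element, fell from 8132 ± 73.0 to 4705 ± 142 without histidine (-0.78, adjusted p = 4.36e-13) and rose to 12822 ± 19.4 without tryptophan (0.65, adjusted p = 3.31e-27, limma).

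Mitochondrial iron and iron-sulfur genes were split without histidine, with 9 higher and 8 lower of 22 tested, and mostly lower without tryptophan, with 6 higher and 13 lower (median -0.30). ISCU, the scaffold on which clusters are built, rose after both depletions (0.65 and 0.75, adjusted p = 3.40e-11 and 2.49e-30, limma).

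Heme genes had the lowest median of the lists after histidine depletion, -0.84 against 0.01 for all genes, with 1 higher and 12 lower of 17, beside 39.1% and 38.2% of all genes. After tryptophan depletion 4 were higher and 11 lower (median -0.32). ABCB10, which supports heme synthesis at the inner mitochondrial membrane, fell from 1270.3 ± 22.8 to 317 ± 4.56 and 913 ± 27.5 (-1.99 and -0.48, adjusted p = 2.08e-17 and 6.72e-12, limma). ALAS1, the first enzyme of heme synthesis, fell from 3304 ± 71.4 to 1898 ± 59.2 without histidine (-0.79, adjusted p = 1.89e-12) and rose to 4967 ± 24.3 without tryptophan (0.58, adjusted p = 1.14e-22, limma). HMOX1, the heme-degrading enzyme and a target of NRF2, measured 466 ± 1.57 in untreated and 468 ± 11.5 in histidine-depleted cells (0.02, adjusted p = 0.869, limma), and under quantile normalization that difference was called at 0.25 (adjusted p = 0.0101). It fell to 299 ± 20.5 without tryptophan (-0.65, adjusted p = 4.30e-10). The ferritin genes are NRF2 targets too, and of 11 other NRF2 targets tested, 3 were higher and 7 lower without histidine (39.1% and 38.2% of all genes) and 8 higher and 2 lower without tryptophan (36.1% and 34.8%). Over all 12 genes of that list, the summed level was 155867 to 163581 in untreated cells. It was 145949 to 149514 in histidine-depleted and 230422 to 238498 in tryptophan-depleted cells. The part of NRF2 in the ferritin values was not tested.

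**Figure D5:**
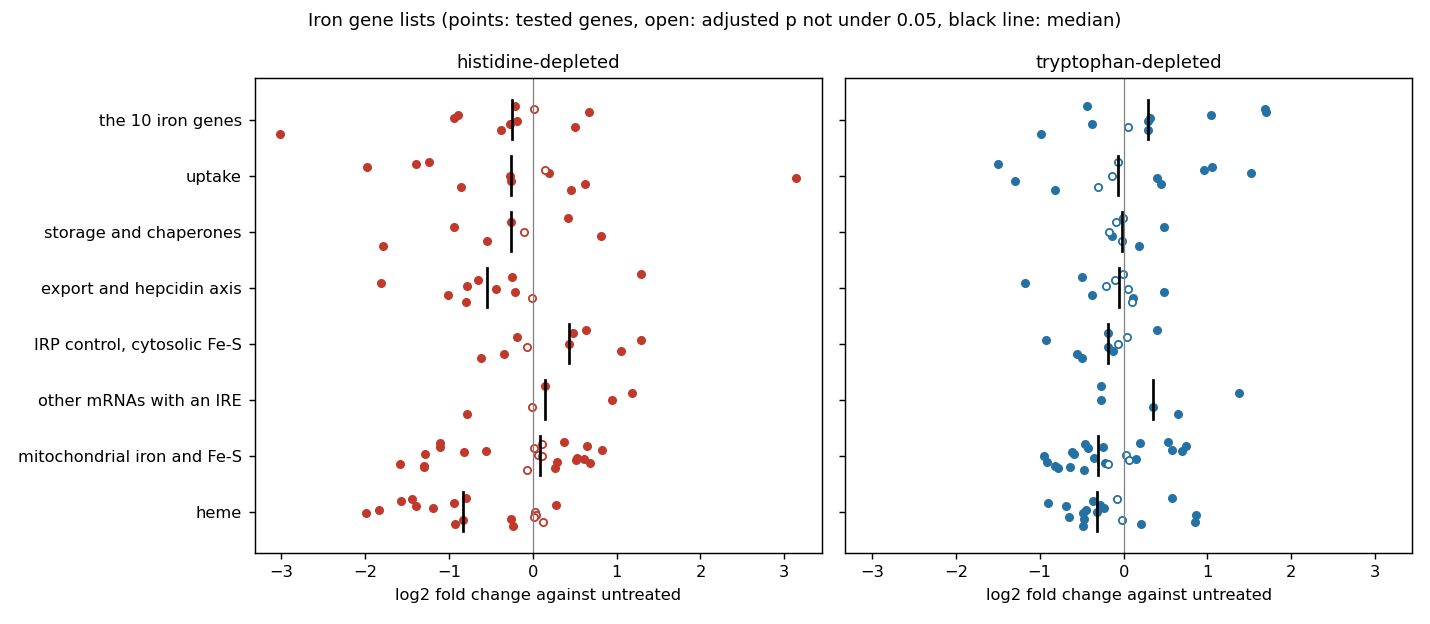
Log2 fold change against untreated cells of each tested gene in the set of 10 iron genes and in 7 lists of other iron genes, after histidine (left) and tryptophan depletion (right); open points have an adjusted p not under 0.05 and black lines are medians. The heme list has a median of -0.84 without histidine and -0.32 without tryptophan.

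The proteins encoded by the 10 genes differ in how many of the depleted amino acids they need. Histidine makes up 5.46% of the codons of FTH1 (10 of 183), a share higher than in 96.33% of 19892 coding sequences, whose median is 2.43%. FTL (4.0%) and HEPH (3.89%) are also rich in histidine codons, and the other 7 lie between 1.60% for SLC11A2 and 2.45% for CYBRD1. Of these 3 genes, HEPH fell, FTL rose and FTH1 was not called without histidine. Tryptophan codons are most frequent in CYBRD1, at 3.50% against a median of 1.13%, then in NCOA4 (2.28%) and HEPH (2.25%). They are least frequent in FTH1 (0.55%) and FTL (0.57%), with 1 tryptophan codon each. CYBRD1 and both ferritin genes rose without tryptophan, while HEPH fell and NCOA4 was not called.

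Promoters from RefSeq (GRCh38.p14, 250 bases before to 50 after the start) were at hand for 9 of the 10 genes and were searched on both strands. The letters TGATGNAA, bound by ATF4 with its partners in amino acid response elements, occurred in SLC11A2 and HEPH and in 3.6% of 35116 promoters. The match in HEPH reads TGATGAAA and that in SLC11A2 TGATGGAA, both on the strand opposite to the gene. Antioxidant response letters, TGACNNNGC, occurred in NCOA4 (TGACAGTGC) and in 13.3% of promoters. These percentages count single promoters, while a gene was counted with a match in any of its promoters, so the units differ. The matched windows of HEPH (chrX:66167500-66167799) and NCOA4 (chr10:46019950-46020249) lie inside the gene spans given above. In SLC11A2 and NCOA4 the match lies after the start, at offsets of 3 and 23 bases. Such a match is a description of the sequence, not a site or a cause.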

How the data were processed

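Polyadenylated RNA of 6 HT29 libraries was prepared with a stranded kit and sequenced in pairs. The authors aligned the reads with STAR 2.7.10a to GRCh38, used HTSeq 2.0.5 for the counts on exons, normalized the counts with DESeq2 and deposited the normalized counts, a signal, in 1 table per depletion that repeats the untreated libraries. How molecular identifiers, strand and reads with several positions were treated is not given in the sources used here.

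Whole reads were recovered from the deposited normalized counts, with 100% of values within 0.01 of a whole number, and all libraries were put on a joint scale by median-of-ratios factors. Of 60676 genes, 60357 were matched to GENCODE 44 for names, GRCh38 coordinates and exon lengths, while the authors had counted reads on an earlier GENCODE release. Tests used limma 3.58.1 in R 4.3.3 (two-sided, trend on) and log2(normalized count + 1) of genes whose mean in the comparison was 10 or more, adjusted over all of them. A fold change on this scale understates that of low genes. Groups came from the sample titles. The direct comparison used limma on all 6 jointly scaled libraries. Level per length was TPM over merged exons.

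The 10 genes, the lists and the rule for named genes were chosen with earlier results of these data known. The rule took the 10 genes, from each list and depletion the called gene with the largest increase or decrease whose groups did not overlap and whose higher group averaged 100 normalized counts or more, and a few fixed by name; not all are reported here. As alternatives, the pseudocount was set to 0.5 or 8, the filter to none or 50, the trend was dropped, values were quantile normalized, recovered reads were tested with edgeR 4.0.16 (TMM) or DESeq2 1.42.0, the replicate number served as a block, the fit took all 6 libraries or the 4 depleted ones, pseudogene reads were added, another gene length was used and each library was left out. The code was tested on simulated data. Recovered counts summed to 46390819 to 64388876 reads per library over the listed genes. Each of these totals is above the average number of paired reads that the paper gives per sample, and the cause was not tested. Tables and plots were made in Python 3.11.15 (matplotlib 3.10.9, numpy 2.4.6, pandas 2.3.3).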

Additional observations from a re-analysis of the deposited data

Results flagged for a closer look

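The direct test found a difference between histidine- and tryptophan-depleted cells for 9 of the 10 iron genes, beside 76.7% of all genes tested. These cells also differed in base medium, which cannot be told apart from the missing amino acid here. Of 33 other genes taken by the naming rule, most of them for a large change, 30 passed this test, and MELTF, UROS and STEAP3 did not (adjusted p = 0.517, 0.356 and 0.0826, limma). Values follow for the genes described in the text. The log2 difference, histidine minus tryptophan depletion, was -2.04 for HEPH, -1.96 for SLC40A1, -1.69 for FTH1, -1.28 for SLC11A2, -1.05 for FTL, -0.69 for CYBRD1, -0.49 for ACO1, 0.43 for NCOA4 and 0.20 for TFRC. In the uptake list it was 2.72 for STEAP4, 1.26 for HFE, 0.16 for SLC39A14, -1.185 for TFR2 and -3.06 for LRP1. Among storage and export genes it was 0.94 for GLRX3, -1.98 for PROM2 and -0.65 for ABCG2. RBX1 differed by 2.19, FBXL5 by 0.23, EPAS1 by -0.22 and PFN2 by -1.45. For the mitochondrial and heme genes the differences were -0.11 for ISCU, -1.39 for ALAS1, -1.52 for ABCB10 and 0.64 for HMOX1. ISCU was not called without the second histidine-depleted library (-0.098, adjusted p = 0.115), without the first (-0.13, 0.053) or the second tryptophan-depleted library (-0.094, 0.165; limma), nor without the mean-variance trend (-0.11, 0.0694). Under quantile normalization neither SLC39A14 (-0.0061, adjusted p = 0.837) nor TFRC (0.052, adjusted p = 0.185, limma) was called. Groups of 2 libraries are too small to look for a library that stands apart.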

How the results depend on the processing

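With 2 libraries per group and a control medium of unstated base, the precision of each value rests on few samples, and the part of depth in it was not tested. Without histidine HEPH was the lowest of the 10 genes, with 131 and 193 normalized counts. Of 198 recomputed main values and counts, 187 stayed within 1.5 times the main count, or for a level per length within 1 SD of the untreated libraries, and 11 moved. Quantile normalization lowered the number of iron genes higher without histidine than without tryptophan from 2 to 1. The longest transcript as the length moved the level per length of all 10 genes, to 8580 for FTL, 449 for FTH1, 142 for NCOA4, 213 for TFRC, 63.6 for SLC40A1, 84.0 for IREB2, 21.0 for ACO1, 46.6 for SLC11A2, 10.3 for HEPH and 6.45 for CYBRD1. Of 1175 recomputed fold changes of named genes, 1146 kept their direction and side of the threshold, 12 lost and 8 gained a call, and 9 took the opposite sign. The sign changed for FTH1 without histidine under quantile normalization (-0.25, called lower with adjusted p = 0.000165, limma), with pseudogene reads added (-0.11), and without the first untreated or histidine-depleted library (-0.046 and -0.023, in a range to 0.067 over the libraries left out). It changed for NCOA4 without tryptophan under quantile normalization (-0.010) and without the first untreated library (-0.0057, in a range to 0.12). HMOX1 without histidine reversed when the second histidine-depleted library was left out (-0.0056, in a range to 0.038). In the direct comparison quantile normalization gave -0.058 for IREB2 and -0.0061 for SLC39A14. On recovered reads, edgeR counted 7169 genes as higher and 7111 as lower without histidine, 6490 and 6349 without tryptophan, and 7053 and 7187 in the direct comparison. Quantile normalization also lowered the difference of NCOA4 from 0.43 to 0.26, while the median of all genes was then -0.016 without histidine, 0.023 without tryptophan and -0.008 in the direct comparison. The cause was not tested.

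The shared replicate number did not pair the libraries: nothing in the labels ties equal numbers to a shared culture or day. The correlation across 12480 genes of equally numbered deviations was 0.117 between untreated and histidine-depleted, -0.053 between untreated and tryptophan-depleted and -0.104 between the depleted libraries. With the replicate block, 7311 genes were higher and 7121 lower after histidine depletion, 6501 and 6265 after tryptophan depletion, and 7095 and 6974 in the direct comparison. Among the 10 iron genes the block changed only the direct call of IREB2 (0.09, adjusted p = 0.0487, limma). It changed no call among the other named genes whose fold changes were recomputed, which were not all of those taken by the naming rule.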
